A study of Mus musculus with 15 samples.

Results

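Granzymes, cathepsin G and the mast cell proteases are serine proteases encoded side by side in 1 gene cluster on mouse chromosome 14. The 8 genes of this cluster described here are Gzmb, Gzmc, Ctsg, Mcpt8, Cma1, Mcpt1, Mcpt2 and Mcpt4, out of 19937 genes measured. They were chosen by name as members of the cluster, and each was read from the probe set whose only gene symbol is the member's. All 8 had exactly 1 such probe set. Expression was measured on microarrays in 15 samples of sorted bone marrow progenitors from female C57BL/6 mice whose Cebpa gene, which encodes the myeloid transcription factor C/EBPα, carries conditional or mutant alleles. The GMP fl/p30 group (granulocyte-macrophage progenitors, cebpa fl/p30; Mx1Cre) pairs a floxed allele with the p30 allele, which makes only the short C/EBPα isoform. The GMP fl/BRM2 group (cebpa fl/BRM2; Mx1Cre) pairs a floxed allele with the BRM2 allele, whose product has a mutated basic region. Their control, GMP fl/+ (cebpa fl/+; Mx1Cre), pairs a floxed with a normal allele. The preGM fl/p30 group holds the more immature pre-granulocyte-macrophage progenitors with the genotype cebpa fl/p30; Mx1Cre, and its control, preGM +/+ (cebpa +/+:Mx1Ce in the labels), carries no floxed or mutant allele. Each group has 3 arrays, and cells were taken 3 weeks after the knockout. The 15 arrays came from 12 animals, since 3 animals gave both the preGM and the GMP array of the fl/p30 groups. All groups carry the Mx1-driven recombinase, which is switched on by interferon and acts in many cell types besides these progenitors. The controls of the preGM and GMP stages differ in genotype.

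The proteases of this cluster are stored as active enzymes in cytoplasmic granules and released on stimulation. Granzymes belong to cytotoxic T and natural killer (NK) cells, where perforin brings them into a target cell. Cathepsin G fills the primary granules of neutrophil precursors and monocytes, chymases those of mast cells, and Mcpt8 marks mouse basophils. GMPs give rise to neutrophils and monocytes, and mast cells and basophils descend from nearby progenitors.

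The promoters of 4 members are shown because 3 of them hold the largest called differences between mutant and control and Ctsg lies between these in the cluster, and because Cma1 and Gzmb lie at the opposite ends of the cluster. Each is the 250 bases before the gene's start, from RefSeq (GRCm38.p6), 5′ to 3′ on the gene's strand, with capitals where a searched motif matched on either strand.
Gzmb, chr14:56262335-56262584, minus strand: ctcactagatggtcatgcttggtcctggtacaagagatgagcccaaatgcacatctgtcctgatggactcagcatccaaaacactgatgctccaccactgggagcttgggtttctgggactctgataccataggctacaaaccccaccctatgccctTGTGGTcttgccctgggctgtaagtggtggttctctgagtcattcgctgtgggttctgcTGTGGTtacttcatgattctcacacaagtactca
Cma1, chr14:55944676-55944925, minus strand: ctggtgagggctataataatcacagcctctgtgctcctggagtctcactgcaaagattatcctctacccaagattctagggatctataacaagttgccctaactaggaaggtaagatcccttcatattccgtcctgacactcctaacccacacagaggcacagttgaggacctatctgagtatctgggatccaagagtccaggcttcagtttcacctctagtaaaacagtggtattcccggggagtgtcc
Mcpt8, chr14:56085198-56085447, minus strand: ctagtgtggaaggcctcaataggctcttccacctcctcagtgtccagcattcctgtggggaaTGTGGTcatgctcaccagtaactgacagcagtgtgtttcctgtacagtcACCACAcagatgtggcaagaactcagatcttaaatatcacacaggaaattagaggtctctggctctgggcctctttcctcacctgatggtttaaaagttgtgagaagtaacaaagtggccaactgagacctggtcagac
Ctsg, chr14:56102575-56102824, minus strand: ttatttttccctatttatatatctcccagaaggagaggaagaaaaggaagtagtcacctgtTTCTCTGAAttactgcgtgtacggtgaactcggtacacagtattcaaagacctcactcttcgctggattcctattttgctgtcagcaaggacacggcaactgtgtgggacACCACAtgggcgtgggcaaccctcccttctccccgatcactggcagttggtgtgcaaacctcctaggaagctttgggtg
Of the 8 members, 7 matched a promoter in this table, and Mcpt2 did not. The 4 motifs searched on both strands were TTGCNNAA for C/EBP, AGATAA for GATA factors, TGTGGT for RUNX factors and TTCNNNGAA for STAT5. They occur in 9.56%, 9.99%, 14% and 7.02% of 32851 windows of the same length. The capitals in Gzmb mark RUNX letters whose first bases lie 93 and 34 bases before the start. Those in Mcpt8 lie 188 bases before it and, on the opposite strand, 139 bases before it. In Ctsg the capitals mark STAT5 letters at 189 bases and RUNX letters on the opposite strand at 79 bases. Gzmc held RUNX letters at 174 and 108 bases, Mcpt1 at 65 and Mcpt4 at 69. Cma1 held none of the 4 motifs, and none of the 7 windows held TTGCNNAA or AGATAA. Other letters that C/EBP or GATA factors may bind were not searched. A match of letters describes the sequence and shows no binding.

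Levels are log2 expression values, and arrays have no read depth: their number limits the precision. The median value per array lay between 6.03 and 6.23. Correlations between arrays over all genes ran from 0.968 to 0.994 within groups and from 0.943 to 0.993 between groups. The gene-wise SD within groups, as a root mean square, was 0.269 in GMP fl/p30, 0.195 in GMP fl/BRM2, 0.319 in GMP fl/+, 0.211 in preGM fl/p30 and 0.165 in preGM +/+. All groups share 1 estimate of the spread in the tests. Of 13 genes taken as not transcribed here (Y-linked genes in female mice and lens crystallins), 12 were measured, at 2.77 to 7.77 with a median of 3.81, so a level by itself does not show transcription. The sort gate was visible in Fcgr3, which encodes an Fc receptor of the kind the GMP gate selects: it exceeded its preGM fl/p30 level in GMP fl/p30 by 2.35 ± 0.20 (adjusted p = 7.26e-05) and its preGM +/+ level in GMP fl/+ by 2.98 ± 0.20 (adjusted p = 4.59e-06). Fcgr2b, another Fc receptor gene among the gate markers, was called higher in GMP fl/+ than in preGM +/+ (1.48, limma adjusted p at most 0.0492 in leave-outs). Between the fl/p30 stages Fcgr2b was not called. Its level was at most 8.32 in GMP fl/p30 and 8.04 in GMP fl/BRM2, against at least 8.38 in GMP fl/+, without a call. Kit, the receptor used to enrich the cells, stood at 9.53 to 10.55 on all arrays. Kit was called lower in GMP fl/+ than in preGM +/+ (-0.59, limma adjusted p up to 0.136 in 3 leave-outs). So was Eng, another marker of the gates (-0.74, at most 0.0346). Itga2b, which encodes the CD41 that the gate excludes, exceeded its GMP fl/+ level in GMP fl/p30 by 1.04 ± 0.25 (adjusted p = 0.0244, and up to 0.106 without GMP fl/p30 replicate 1 or 2).

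**Figure D1:**
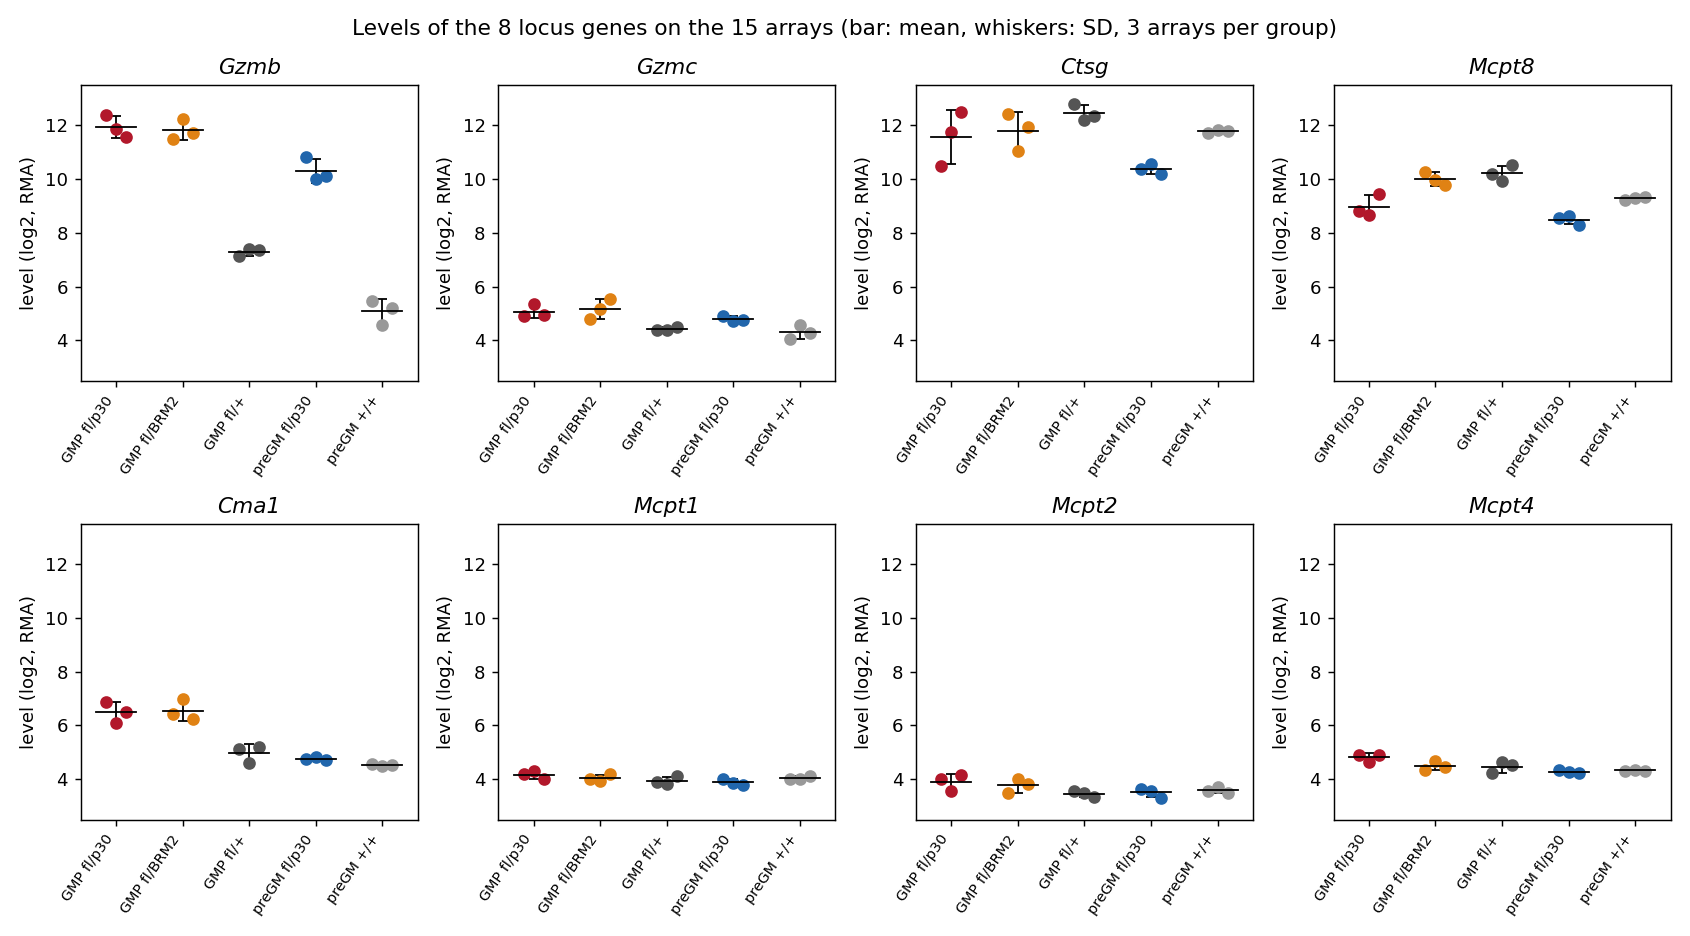
Level (log2) of each of the 8 genes on each array, by group, with 1 point per array, a bar at the mean of 3 arrays and whiskers of 1 SD. Gzmb lies at 9.997 or above on the 9 mutant arrays and at 7.41 or below on the 6 control arrays, while Mcpt1, Mcpt2 and Mcpt4 stay below 5 on all 15.

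Gzmb, the granzyme that cleaves after aspartate and starts apoptosis in target cells, was the member that changed most. Its level was 12.36, 11.88 and 11.55 in the GMP fl/p30 arrays and 11.50, 12.22 and 11.71 in GMP fl/BRM2, against 7.13, 7.41 and 7.35 in GMP fl/+. In preGMs it was 10.83, 9.997 and 10.13 in fl/p30, against 5.48, 4.57 and 5.21 in +/+. Every mutant array lay above every control array of its stage. Differences below are log2 differences ± standard error from limma, with Benjamini-Hochberg adjustment over all genes. Calls were made where the adjusted p lay under 0.05. The GMP fl/p30 arrays exceeded GMP fl/+ by 4.63 ± 0.27 (adjusted p = 8.16e-07). The GMP fl/BRM2 arrays exceeded GMP fl/+ by 4.51 ± 0.27 (adjusted p = 1.18e-06), and preGM fl/p30 exceeded preGM +/+ by 5.23 ± 0.27 (adjusted p = 1.56e-07). The preGM +/+ level of Gzmb lies below the array medians, so the preGM difference may understate the change. Among all 19937 genes, Gzmb had the largest positive difference in the preGM comparison and ranked 2 in both GMP comparisons. The 2 GMP comparisons share their control arrays. These 3 calls held under all 23 alternatives, with differences of 4.42 to 4.82, 4.31 to 4.66 and 4.97 to 5.43. In order, the mean was 11.93 ± 0.41 (SD, n = 3) in GMP fl/p30, 11.81 ± 0.37 in GMP fl/BRM2, 10.32 ± 0.45 in preGM fl/p30, 7.30 ± 0.15 in GMP fl/+ and 5.09 ± 0.47 in preGM +/+. The first 2 of these overlapped, and the difference between preGM fl/p30 and GMP fl/+ was not tested. In bulk RNA, fewer cells that express a gene and less RNA per cell cannot be told apart, here or below.

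Gzmc, a second granzyme of mouse cytotoxic lymphocytes whose gene neighbours Gzmb, was dim throughout. Its level was 4.89, 5.35 and 4.96 in GMP fl/p30 and 4.80, 5.18 and 5.53 in GMP fl/BRM2, against 4.38, 4.39 and 4.50 in GMP fl/+. In preGMs it was 4.91, 4.74 and 4.78 in fl/p30, against 4.07, 4.59 and 4.28 in +/+. The mutant arrays again lay above the control arrays of their stage, by less than 1 on the log2 scale on average. Gzmc was called higher in GMP fl/p30 (0.65 ± 0.18, adjusted p = 0.0469) and in GMP fl/BRM2 (0.75 ± 0.18, adjusted p = 0.0402), and not in preGM fl/p30 (0.50 ± 0.18, adjusted p = 0.222). The call in GMP fl/p30 stood without GMP fl/BRM2 replicate 1 or 3 or preGM +/+ replicate 2, and was lost without any 1 of the other 12 arrays (adjusted p up to 0.182). That in GMP fl/BRM2 did not survive leaving out replicate 2 or 3 of either GMP group, replicate 3 of preGM +/+, or any preGM fl/p30 array (adjusted p up to 0.191). The first call was also lost with the animal as a random block (0.0529), and both were lost in fits of the compared arrays alone (0.14 and 0.175), the second also with arrays centred on their medians (0.0525). Whether the Gzmc probes bind Gzmb transcripts was not tested.

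Cathepsin G, a chymotrypsin-like protease of primary granules, was lower on average in each mutant group without a call. Ctsg stood at 10.50, 11.77 and 12.48 in GMP fl/p30 and at 12.42, 11.03 and 11.93 in GMP fl/BRM2, against 12.79, 12.21 and 12.35 in GMP fl/+. In preGMs it stood at 10.37, 10.55 and 10.19 in fl/p30, against 11.72, 11.84 and 11.80 in +/+. Both GMP mutants overlapped their control, with an SD of 1.004 in GMP fl/p30 and 0.71 in GMP fl/BRM2, while the 2 preGM groups did not overlap. The difference was -0.87 ± 0.40 in GMP fl/p30 (adjusted p = 0.24), -0.66 ± 0.40 in GMP fl/BRM2 (adjusted p = 0.499) and -1.42 ± 0.40 in preGM fl/p30 (adjusted p = 0.107). The GMP fl/p30 value was -1.32 and called on leaving out its replicate 3 (adjusted p = 0.0445), and -0.33 on leaving out its replicate 1 (adjusted p = 0.598). The preGM difference was called in a fit of the 6 preGM arrays alone (adjusted p = 0.000148), with array weights (0.0101) and without GMP fl/p30 replicate 1 (0.0206) or 3 (0.0428), and its adjusted p over all alternatives ran from 0.000148 to 0.286.

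Markers of promyelocytes, the neutrophil precursors that make primary granules, moved with Ctsg. The mean level of the 5 markers (Mpo, Elane, Prtn3, Ms4a3 and Prss57) was 8.77, 10.05 and 11.21 in GMP fl/p30 and 11.01, 9.26 and 10.44 in GMP fl/BRM2, against 11.54, 10.97 and 11.07 in GMP fl/+. It was 8.32, 8.32 and 7.90 in preGM fl/p30, against 9.57, 9.82 and 9.40 in preGM +/+. Within each of the 3 GMP groups, control included, the arrays had the same order for Ctsg and for these markers, and within the 2 preGM groups they did not. Elane, the neutrophil elastase, spanned 6.47 to 10.85 in GMP fl/p30 and 7.34 to 10.59 in GMP fl/BRM2, against 10.90 to 11.72 in GMP fl/+. None of the 5 was called in a mutant comparison (3, 1 and 4 had an unadjusted p under 0.05 in GMP fl/p30, GMP fl/BRM2 and preGM fl/p30), while 3 were called lower in GMP fl/p30 without its replicate 3. In preGM fl/p30, 1 was called lower on leaving out replicate 1 of GMP fl/p30 and 2 on leaving out replicate 3. The part of these cells in the Ctsg values was not tested.

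Mcpt8, a granule protease of basophils, fell in GMP fl/p30. It stood at 8.83, 8.66 and 9.45 there and at 10.26, 9.98 and 9.76 in GMP fl/BRM2, against 10.18, 9.94 and 10.51 in GMP fl/+. In preGMs it stood at 8.54, 8.61 and 8.30 in fl/p30, against 9.22, 9.29 and 9.33 in +/+. The GMP fl/p30 arrays lay below all other GMP arrays, the GMP fl/BRM2 arrays overlapped the control, and the preGM groups did not overlap. Against GMP fl/+, Mcpt8 in GMP fl/p30 was lower by a log2 difference of -1.23 ± 0.20 (adjusted p = 0.00202), a call lost only in a fit of these 6 arrays alone (adjusted p = 0.0852) among 23 alternatives. In GMP fl/BRM2 the difference was -0.21 ± 0.20 (adjusted p = 0.713). In preGM fl/p30 it was -0.80 ± 0.20 (adjusted p = 0.0599), which was called in a fit of the 6 preGM arrays alone (0.00382), with array weights (0.0155) and on leaving out replicate 3 of GMP fl/p30 (0.0174) or replicate 2 of GMP fl/+ (0.0446), over a range of 0.00382 to 0.211. The direct comparison of GMP fl/p30 with GMP fl/BRM2 gave -1.02 ± 0.20 (95% interval -1.44 to -0.60). It had an unadjusted p of 0.000129 and was not called (adjusted p = 0.198), except with array weights (-1.17, adjusted p = 0.00181) and without GMP fl/p30 replicate 3 (-1.26, adjusted p = 0.0168). Over all alternatives its adjusted p ran from 0.00181 to 0.998.

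Prss34, another basophil protease whose gene lies elsewhere in the genome, is set beside Mcpt8. Its level was 6.23, 5.85 and 5.97 in GMP fl/p30 and 6.12, 6.08 and 6.25 in GMP fl/BRM2, against 7.03, 7.45 and 8.10 in GMP fl/+. Prss34 was lower in both mutants, by a log2 difference of -1.51 ± 0.21 (adjusted p = 0.000665) and -1.38 ± 0.21 (adjusted p = 0.00267). It was not called in preGM fl/p30 (0.27 ± 0.21, adjusted p = 0.603). The mean level of 8 basophil markers was 6.84 to 7.38 in GMP fl/p30 and 7.12 to 7.46 in GMP fl/BRM2, against 6.51 to 6.89 in GMP fl/+, with Cpa3 called higher and Prss34 lower in both and the other 6 not called. Without Cpa3 the mean of the other 7 was 6.21 to 6.74 in GMP fl/p30 and 6.53 to 6.87 in GMP fl/BRM2, against 6.17 to 6.61 in GMP fl/+, and all 3 ranges overlapped. Leaving out arrays moved the higher count in GMP fl/p30 to 2 (replicate 1 of preGM fl/p30 or of GMP fl/+) or 3 (its own replicate 3), the lower count to 2 (replicate 1 of GMP fl/+), and the higher count in GMP fl/BRM2 to 2 (GMP fl/BRM2 replicate 3). Of the 8 markers, 4 and 5 had an unadjusted p under 0.05 (limma) in GMP fl/p30 and GMP fl/BRM2, and 3 between the mutants. Ms4a2 was 7.11 to 7.66 in GMP fl/p30 and 8.56 to 9.80 in GMP fl/BRM2, against 7.30 to 8.48 in GMP fl/+. Cd200r3 was 4.71 to 5.06 and 4.98 to 5.945, against 4.41 to 4.94. Fcer1a went the other way between the mutants, at 7.48 to 9.80 and 7.37 to 7.70.

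The chymases lie at the Cma1 end of the cluster. Cma1, a chymase family protease of connective tissue mast cells, rose in both GMP mutants. It stood at 6.88, 6.10 and 6.51 in GMP fl/p30 and at 6.41, 6.97 and 6.24 in GMP fl/BRM2, against 5.13, 4.60 and 5.19 in GMP fl/+. In preGMs it stood at 4.74, 4.83 and 4.72 in fl/p30, against 4.58, 4.48 and 4.54 in +/+. All 6 mutant GMP arrays lay above the GMP control, and the preGM groups did not overlap either but differed little. Cma1 was higher in GMP fl/p30 by 1.52 ± 0.21 (adjusted p = 0.00069) and in GMP fl/BRM2 by 1.57 ± 0.21 (adjusted p = 0.00108), under all 23 alternatives (1.09 to 1.72 and 1.35 to 1.72). The preGM difference was 0.23 ± 0.21 (adjusted p = 0.668). The GMP fl/+ and preGM levels lie below the array medians, so these differences may understate the change and no fold is given.

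Mcpt1 and Mcpt2, chymases of mucosal mast cells, and Mcpt4, a chymase of connective tissue mast cells, were at low values in every group. Over the 15 arrays Mcpt1 ranged from 3.77 to 4.29, Mcpt2 from 3.31 to 4.15 and Mcpt4 from 4.22 to 4.91. None of the 3 was called in any of the 7 comparisons. Mcpt4 stood at 4.90, 4.65 and 4.91 in GMP fl/p30, against 4.22, 4.64 and 4.52 in GMP fl/+ (0.36 ± 0.12, adjusted p = 0.112). These arrays did not overlap, and centring each array on its median gave the call (0.43, adjusted p = 0.0381). Mcpt2 differed there by 0.44 ± 0.17 (adjusted p = 0.148) and Mcpt1 by 0.22 ± 0.12 (adjusted p = 0.323), with overlapping arrays. In GMP fl/BRM2 the 3 genes differed from GMP fl/+ by 0.04 to 0.31, and in preGM fl/p30 from preGM +/+ by -0.17 to -0.05.

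Markers of mast cells moved in both directions beside Cma1. The mean level of 10 mast cell markers was 7.21 to 7.57 in GMP fl/p30 and 7.25 to 7.53 in GMP fl/BRM2, against 6.73 to 6.96 in GMP fl/+. In preGMs it was 6.76 to 6.998 in fl/p30, against 6.69 to 6.87 in +/+. Without Cpa3 the mean of the other 9 was 6.77 to 7.09 in GMP fl/p30 and 6.82 to 7.08 in GMP fl/BRM2, against 6.55 to 6.75 in GMP fl/+, and 6.197 to 6.43 in preGM fl/p30, against 6.41 to 6.59 in preGM +/+. Cpa3, the mast cell carboxypeptidase, was higher by 3.09 ± 0.34 in GMP fl/p30 (adjusted p = 0.000128), 3.00 ± 0.34 in GMP fl/BRM2 (0.000315) and 2.53 ± 0.34 in preGM fl/p30 (0.00243). Slc18a2, the granule monoamine transporter, was higher in GMP fl/p30 by 2.34 ± 0.35 (adjusted p = 0.00128) and in GMP fl/BRM2 by 2.40 ± 0.35 (0.0022). Hdc, which makes histamine, was lower by a log2 difference of -2.21 ± 0.36 in GMP fl/p30 (adjusted p = 0.00249), -1.90 ± 0.36 in GMP fl/BRM2 (0.0122, and 0.0814 without GMP fl/BRM2 replicate 2) and -2.19 ± 0.36 in preGM fl/p30 (0.00755). The other 7 markers in each GMP comparison and 8 in preGMs were not called. Of all 10, 6, 4 and 3 had an unadjusted p under 0.05 (limma) in GMP fl/p30, GMP fl/BRM2 and preGM fl/p30. Among those not called, Fcer1a was 7.48 to 9.80 in GMP fl/p30 and 7.37 to 7.70 in GMP fl/BRM2, against 6.39 to 7.22 in GMP fl/+. Tpsb2 was 5.95 to 6.63 in GMP fl/p30, against 5.665 to 5.91 in GMP fl/+. Ms4a2 overlapped its control in GMP fl/p30 (7.11 to 7.66, against 7.30 to 8.48) and lay above it in GMP fl/BRM2 (8.56 to 9.80). The tryptase Tpsab1 ranged from 4.48 to 5.29 over all arrays, and Mrgprb1 and Mrgprb2, receptors of mature mast cells, from 3.43 to 3.77 and from 3.31 to 3.71. Leaving out replicate 3 of GMP fl/p30, or replicate 1 of its control, left 4 of the 10 called higher in GMP fl/p30, and in the second case 2 were lower. The part of mast cells in the Cma1 values was not tested.

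**Figure D2:**
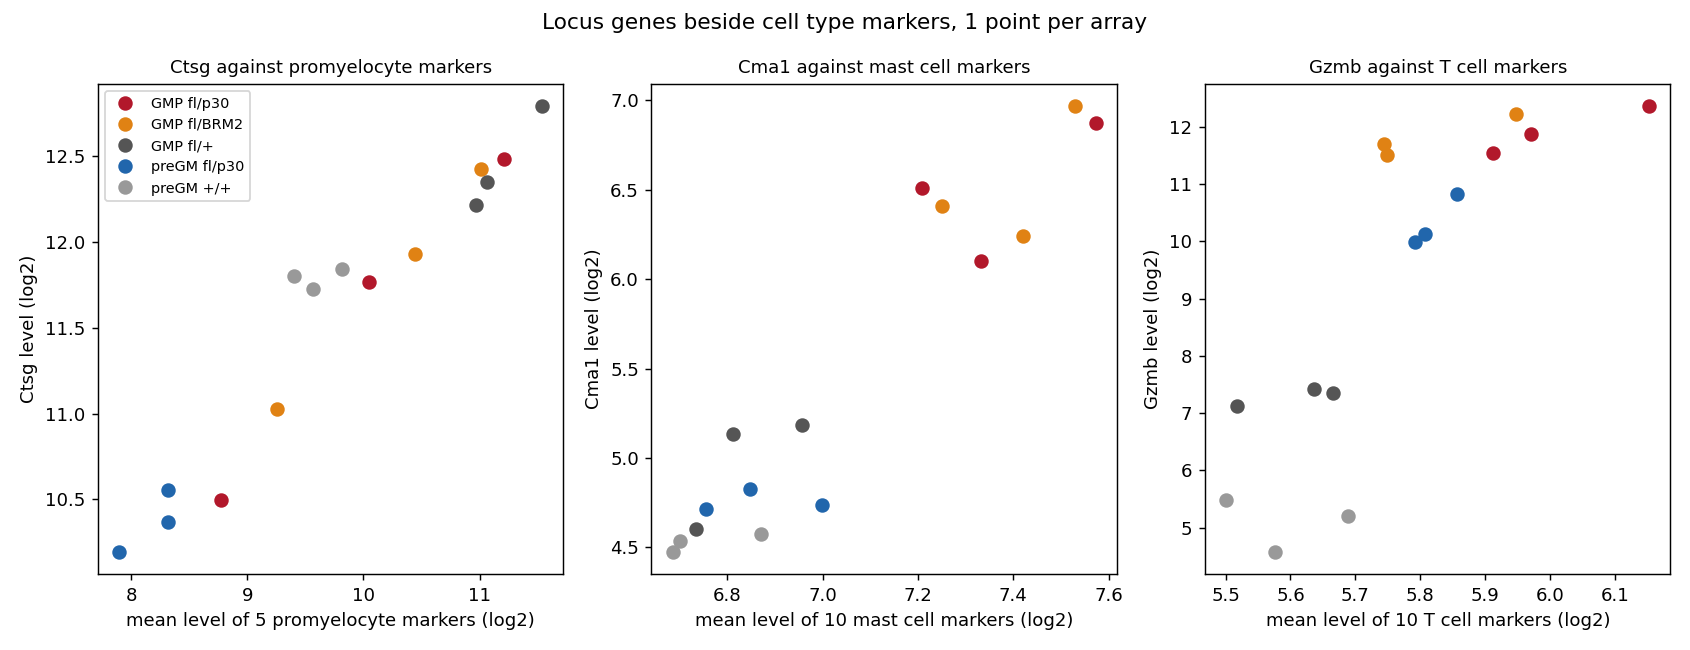
Level (log2) of Ctsg, Cma1 and Gzmb against the mean level (log2) of 5 promyelocyte, 10 mast cell and 10 T cell markers, with 1 point per array coloured by group. Ctsg has the same order of arrays as the promyelocyte markers within each of the 3 GMP groups but not within the preGM groups, and for Gzmb the 9 mutant arrays stand apart at 9.997 or above and their T cell marker means, within a span of 5.50 to 6.15 over all arrays, also lie above those of the control arrays, which does not hold without Lat.

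Counted together, 4 of the 8 members were called in GMP fl/p30 against GMP fl/+, where 6.06% of all genes were called. Gzmb, Gzmc and Cma1 were higher (4.69% of all genes were) and Mcpt8 was lower (1.37%). The median difference of the members was 0.40, against -0.04 over all genes, and the groups did not overlap for 5 members and for 17.4% of all genes. In GMP fl/BRM2 against GMP fl/+, Gzmb, Gzmc and Cma1 were higher, 3 of 8, where 1.89% of all genes were called higher and 0.642% lower. Their median difference was 0.21, against -0.02 over all genes, with 3 members and 15.2% of all genes not overlapping. In preGM fl/p30 against preGM +/+, Gzmb was higher, 1 of 8, where 1.68% of all genes were called, 0.647% higher and 1.03% lower. The median difference was -0.07, against 0.03 over all genes. The groups did not overlap for 5 members there, and for 25.1% of all genes: Gzmb, Gzmc and Cma1 lay above and Ctsg and Mcpt8 below. The members called higher lie at the 2 ends of the cluster, with Ctsg and Mcpt8 between them.

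**Figure D3:**
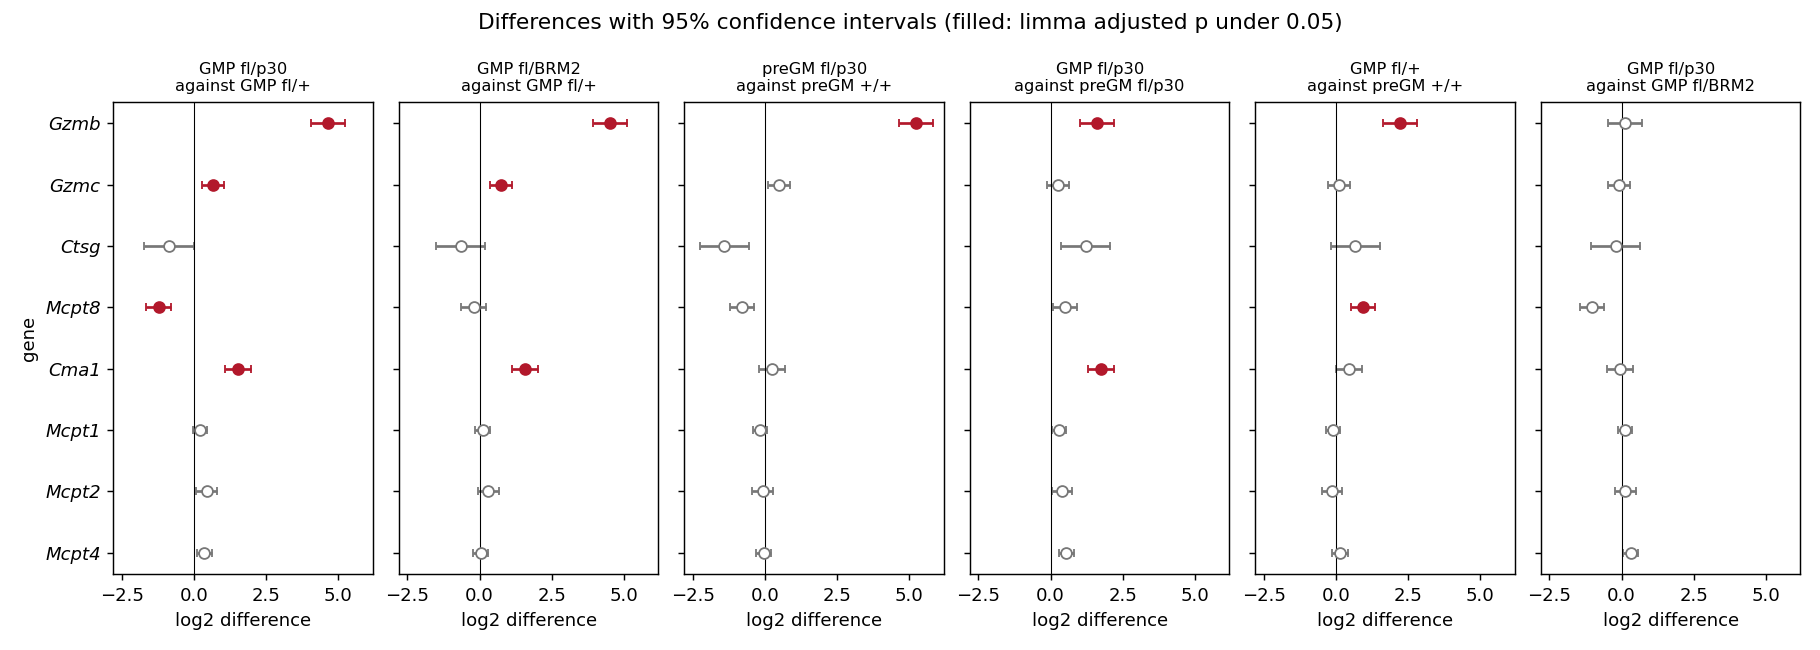
Log2 difference of each member, first group over second, in 6 comparisons, with 95% confidence intervals and filled points where limma's adjusted p was under 0.05. Gzmb lies at 4.51 to 5.23 in the 3 mutant comparisons, Cma1 is filled in both GMP mutants but not in preGMs, and no point is filled between GMP fl/p30 and GMP fl/BRM2.

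The 2 mutant alleles were compared directly in GMPs. None of the 8 members was called (limma), where 0.00502% of all genes were, and 2 had an unadjusted p under 0.05, Mcpt8 and Mcpt4. The arrays did not overlap for 1 member, Mcpt8, and for 8.33% of all genes. The 95% intervals of the differences (GMP fl/p30 minus GMP fl/BRM2) were -0.47 to 0.71 for Gzmb, -0.48 to 0.28 for Gzmc, -1.07 to 0.64 for Ctsg and -0.49 to 0.41 for Cma1. For Mcpt4 the interval was 0.05 to 0.58. These widths leave room for a log2 difference of up to 0.71 in Gzmb, against its rise of 4.51 or more over control.

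Between the stages in fl/p30 mice, Gzmb and Cma1 rose, 2 of 8, where 0.356% of all genes were higher and 0.286% lower. Gzmb exceeded its preGM fl/p30 level in GMP fl/p30 by 1.61 ± 0.27 (adjusted p = 0.014), and Cma1 by 1.74 ± 0.21 (adjusted p = 0.00145). The Gzmb call was lost without preGM fl/p30 replicate 2 (1.45, adjusted p = 0.0675) or 3 (1.52, adjusted p = 0.0904), and in a fit of the 6 arrays alone (0.088). In a fit of those 6 arrays with the animal as a block, both calls held (adjusted p = 0.0226 and 0.0341). Mcpt4 (0.54 ± 0.12, adjusted p = 0.0731) was called with the animal as a random block (0.0146) and under 5 other alternatives, over a range of 0.0127 to 0.233. Ctsg differed by 1.21 ± 0.40 (adjusted p = 0.202), and by 1.75 with a call without GMP fl/p30 replicate 1 (0.0295). The groups did not overlap for 4 members and for 17.2% of all genes, and the median difference was 0.52, against 0.03 over all genes.

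Between the stages in control mice, Gzmb and Mcpt8 rose, 2 of 8, where 10.2% of all genes were called, 4.19% higher and 6.02% lower. Gzmb was higher in GMP fl/+ than in preGM +/+ by 2.21 ± 0.27 (adjusted p = 0.000501), under all 23 alternatives. Mcpt8 was higher by 0.93 ± 0.20 (adjusted p = 0.0115), and not called without preGM +/+ replicate 1 (0.90, adjusted p = 0.051). Ctsg (0.66 ± 0.40, adjusted p = 0.262) and Cma1 (0.44 ± 0.21, adjusted p = 0.162) did not pass, although their arrays did not overlap, as for 4 members and 34% of all genes. The median difference was 0.29, against 0.08 over all genes. Prss34 rose at this step as well (1.85 ± 0.21, adjusted p = 0.00022). Stage and genotype change together here and cannot be told apart.

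The difference of the p30 effects at the 2 stages, GMP minus preGM, was also tested. Each effect was taken against the control of its stage, GMP fl/+ or preGM +/+. Stage and control genotype therefore cannot be told apart here. None of the 8 members was called (limma), where 0.00502% of all genes were, and 4 had an unadjusted p under 0.05. Cma1 gave 1.29 ± 0.30 (95% interval 0.66 to 1.93, adjusted p = 0.117), which was called without GMP fl/+ replicate 1 (1.37, adjusted p = 0.0221) and had an adjusted p of up to 0.289 otherwise. Gzmb gave -0.60 ± 0.39 (interval -1.43 to 0.24), a value that the dim preGM +/+ level also limits. Mcpt8 gave -0.43 ± 0.28 (-1.03 to 0.16) and Ctsg 0.55 ± 0.56 (-0.66 to 1.76).

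In chromosome order the cluster runs Cma1, Mcpt1, Mcpt2, Mcpt4, Mcpt8, Ctsg, then the granzyme genes Gzme, Gzmd, Gzmg, Gzmn, Gzmf, Gzmc and Gzmb. The list of other cluster genes has 10 entries, of which 5 were measured, Gzmd, Gzme, Gzmf, Gzmg and Gzmn, all between Ctsg and Gzmc. The mean level of these 5 was 3.88 to 3.97 in GMP fl/p30 and 3.93 to 4.02 in GMP fl/BRM2, against 3.99 to 4.17 in GMP fl/+, and 3.89 to 3.95 in preGM fl/p30, against 3.90 to 3.97 in preGM +/+. None was called higher in a mutant. Their means lay below those of the 12 measured genes taken as not transcribed, which were 4.31 to 4.54 over all arrays. The latter means include the brighter Sry and Cryaa (medians 7.43 and 6.50), and the median value of the 12 genes was lower, at 3.81. These 5 genes may thus be undetected, and the missing calls do not show that they were unchanged. Gzmf in GMP fl/p30 was called lower than its control (-0.35 ± 0.10, adjusted p = 0.0454), a call lost without any 1 of 13 of the 15 arrays (up to 0.178), all but preGM fl/p30 replicate 1 and GMP fl/+ replicate 1. It was higher in GMP fl/+ than in preGM +/+ (0.39 ± 0.10, adjusted p = 0.0237, and up to 0.0867 without preGM +/+ replicate 1 or 2 or GMP fl/+ replicate 2 or 3).

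The 5 nearest measured genes on each side, taken by position after the members' values were known, give 10 flanking genes. Sdr39u1, the neighbour of Cma1, was higher by 1.08 ± 0.20 in GMP fl/p30 (adjusted p = 0.00519) and by 0.90 ± 0.20 in GMP fl/BRM2 (adjusted p = 0.0288, and up to 0.161 on leaving out replicate 2 of the control or replicate 2 or 3 of the mutant). Sdr39u1 was also lower in GMP fl/+ than in preGM +/+ (-0.82 ± 0.20, adjusted p = 0.0227, and up to 0.0988 without any preGM +/+ array or GMP fl/+ replicate 2), so the control of both mutants had its lowest mean. In preGM fl/p30 it differed by -0.20 ± 0.20 (adjusted p = 0.708). Nynrin, farther out on that side, differed by 1.78 ± 0.53 in GMP fl/p30 without a call (adjusted p = 0.0622). The other flanking genes were not called in these comparisons, and the median differences of the 10 were 0.15, 0.05 and 0.05. Atp12a and the other 4 genes on the Gzmb side were not called.

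**Figure D4:**
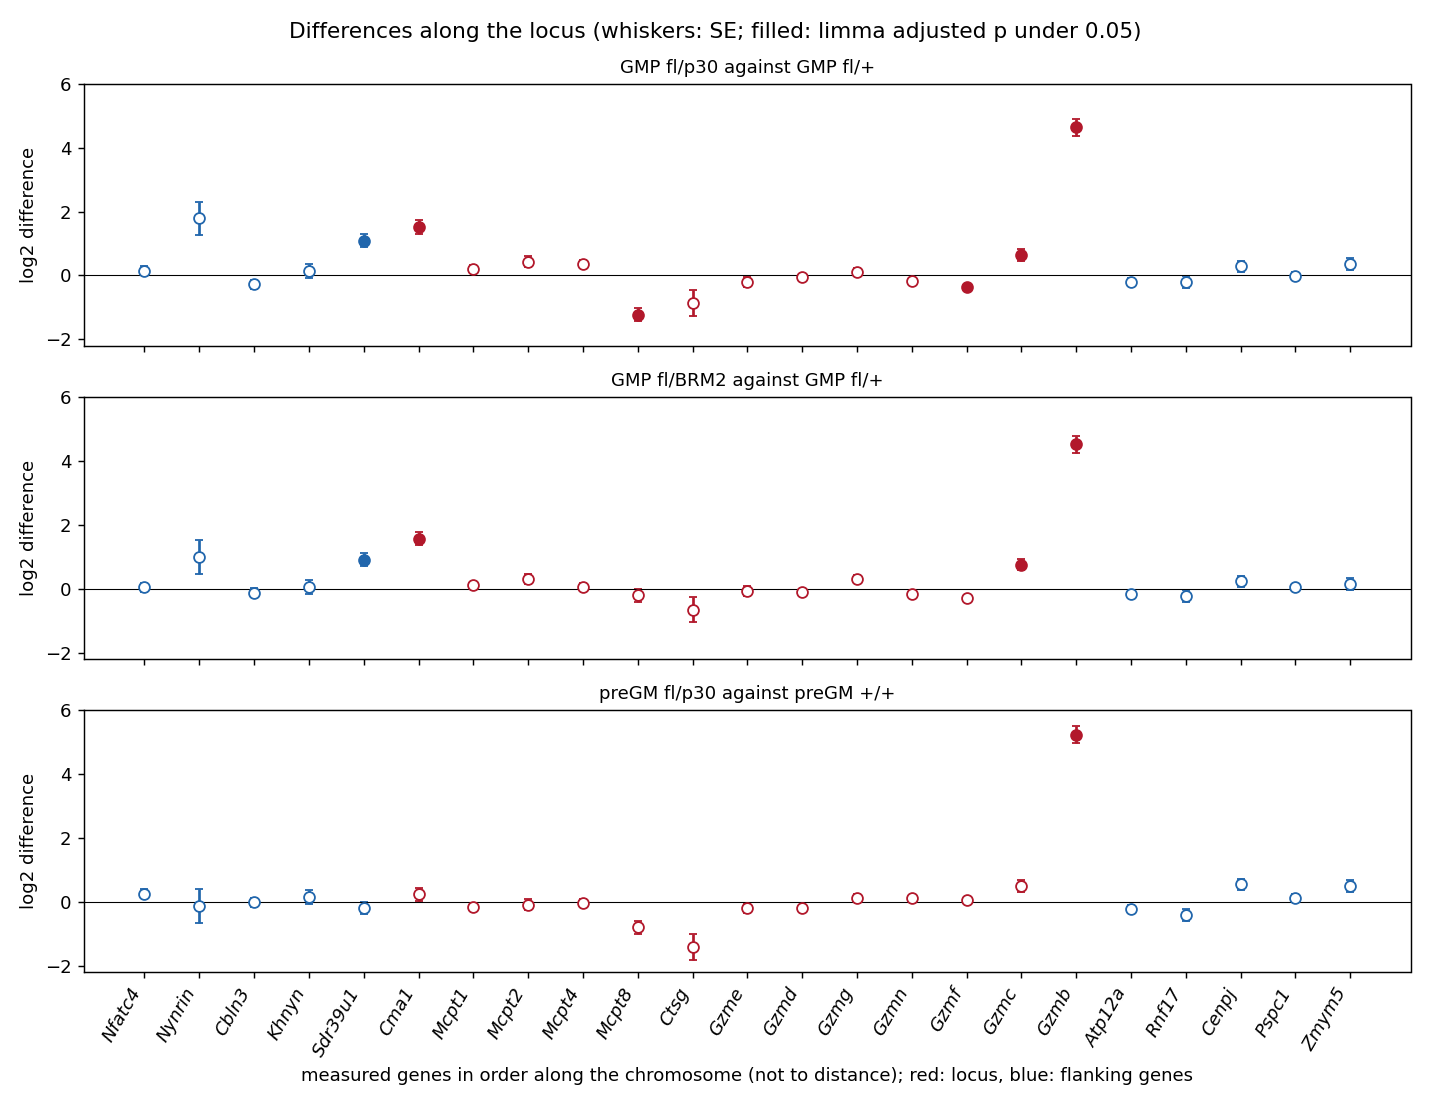
Log2 difference ± standard error of the measured genes in chromosome order (evenly spaced, not to distance), with cluster genes in red, flanking genes in blue and filled points where limma's adjusted p was under 0.05. In both GMP mutants Sdr39u1, Cma1, Gzmc and Gzmb are filled above 0, and in preGM fl/p30 Gzmb alone is filled. The 5 granzyme genes between Ctsg and Gzmc lie near 0, at levels so low that they may be undetected.

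Other genes of the cytotoxic granule machinery are set beside Gzmb. Of 15, all measured, 0 were higher in each of the 3 mutant comparisons by limma (2, 2 and 5 had an unadjusted p under 0.05 in GMP fl/p30, GMP fl/BRM2 and preGM fl/p30), and 1 was lower in GMP fl/p30 and 1 in preGM fl/p30. Prf1, the perforin that lets granzymes into a target cell, stood at 6.59 to 6.70 in GMP fl/p30 and 6.54 to 6.59 in GMP fl/BRM2, against 6.59 to 6.81 in GMP fl/+. Over all arrays Gzma, Gzmk and Gzmm, granzymes encoded elsewhere, ranged from 4.45 to 5.45, 4.70 to 5.23 and 5.49 to 6.05. Srgn, the granule proteoglycan that binds granzymes, ranged from 11.77 to 12.31, and Ctsc, which activates granule serine proteases, from 8.43 to 9.61. Lyst, a granule size regulator, was lower in GMP fl/p30 (-1.38 ± 0.37, adjusted p = 0.0403, and up to 0.177 in 11 of 15 leave-outs). Ctsh was lower in preGM fl/p30 (-2.72 ± 0.61, adjusted p = 0.0377, and up to 0.155 in 9 of 15). Nkg7, Stx11 and Stxbp2 were higher in GMP fl/+ than in preGM +/+, each losing the call in 2 or more leave-outs. The counts of this list moved to 2 higher in GMP fl/p30 without GMP fl/+ replicate 1, to 1 higher in GMP fl/BRM2 without the same array, and to 2 lower in GMP fl/p30 and in GMP fl/BRM2 without GMP fl/p30 replicate 3.

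Serpins that inhibit these proteases were measured for 6 of 10 entries, and 0 were called in any comparison (limma; 2, 1 and 2 had an unadjusted p under 0.05 in GMP fl/p30, GMP fl/BRM2 and preGM fl/p30). Serpinb1a, an inhibitor of neutrophil serine proteases, ranged from 9.53 to 10.84 over all arrays, and each mutant group overlapped its control. Serpinb9 was 4.80 to 5.44 in GMP fl/p30 and 4.74 to 5.13 in GMP fl/BRM2, against 4.42 to 4.49 in GMP fl/+. In preGMs Serpinb9 was 5.19 to 5.78 in fl/p30, against 4.82 to 5.07 in +/+, so no mutant group overlapped its control, without a call. Among 9 granule proteases and enzymes encoded elsewhere, Cpa3 was higher in all 3 mutant comparisons and Prss34 lower in both GMP mutants. The other 7 in GMPs and 8 in preGMs did not pass, and 4 were lower in GMP fl/p30 without its replicate 3. In preGM fl/p30, 1 was lower on leaving out replicate 1 of GMP fl/p30 and 2 on leaving out replicate 3.

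Of 16 transcription factors linked to these genes, 6 were higher and 2 lower in GMP fl/p30, where 4.69% and 1.37% of all genes were. In GMP fl/BRM2, 4 were higher and 1 lower (1.89% and 0.642% of all genes), and in preGM fl/p30, 0 and 1 (0.647% and 1.03%). Of the 16, 11, 9 and 5 had an unadjusted p under 0.05 (limma) in these comparisons. Besides those below, Cebpa (0.69, adjusted p up to 0.15 in 8 leave-outs) and Runx3 (0.76, up to 0.119 in 3) were higher in GMP fl/p30. Gfi1 was lower there (-0.82, at most 0.0469 in leave-outs). Gata2, a factor of mast cell and basophil precursors, was higher by 1.93 ± 0.23 in GMP fl/p30 (adjusted p = 0.000232) and by 1.77 ± 0.23 in GMP fl/BRM2 (adjusted p = 0.000899), and differed by 0.56 ± 0.23 in preGM fl/p30 (adjusted p = 0.294). Irf8, which directs monocyte and dendritic cell fate, was lower by a log2 difference of -1.72 ± 0.30 in GMP fl/p30 (adjusted p = 0.00329), -1.44 ± 0.30 in GMP fl/BRM2 (0.0186, and up to 0.119 without GMP fl/+ replicate 2 or GMP fl/BRM2 replicate 2) and -2.12 ± 0.30 in preGM fl/p30 (0.0027). Gata1 was higher by 1.05 ± 0.20 in GMP fl/p30 (adjusted p = 0.00529) and by 1.20 ± 0.20 in GMP fl/BRM2 (0.0046). Runx1 was higher by 0.94 ± 0.21 in GMP fl/p30 (0.0162, and up to 0.0721 in 3 leave-outs) and by 0.88 ± 0.21 in GMP fl/BRM2 (0.0402, and up to 0.223 in 9). Mitf, the mast cell factor, was called higher than in GMP fl/+ in GMP fl/p30 (0.84, adjusted p at most 0.0254 in leave-outs). The same held in GMP fl/BRM2 (0.67, adjusted p up to 0.188 in 4 leave-outs). Mitf also exceeded its preGM fl/p30 level in GMP fl/p30 by 0.94 ± 0.15 (adjusted p = 0.00936, and 0.057 without preGM fl/p30 replicate 3). Gzmb and Cma1 rose at that step too, and a link between these genes was not tested. The higher count was 3 in GMP fl/p30 on leaving out its replicate 2 or control replicate 3, and 2 in GMP fl/BRM2 on leaving out its replicate 2 or control replicate 2 or 3. The lower count in GMP fl/BRM2 was 0 on leaving out replicate 2 of either group, 3 without GMP fl/+ replicate 1, and 2 without preGM fl/p30 replicate 2, GMP fl/BRM2 replicate 1 or GMP fl/p30 replicate 1.

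Markers of cytotoxic cells are given beside Gzmb. The mean level of 10 T cell markers was 5.91 to 6.15 in GMP fl/p30 and 5.74 to 5.95 in GMP fl/BRM2, against 5.52 to 5.67 in GMP fl/+, and 5.79 to 5.86 in preGM fl/p30, against 5.50 to 5.69 in preGM +/+. All 9 mutant arrays lay above all 6 control arrays in this mean, but not in the mean of the 9 markers other than Lat. That was 5.52 to 5.79 in GMP fl/p30 and 5.35 to 5.54 in GMP fl/BRM2, against 5.34 to 5.47 in GMP fl/+, and 5.35 to 5.48 in preGM fl/p30, against 5.26 to 5.42 in preGM +/+. Lat, a signalling adaptor of T cells that mast cells and platelets also use, was higher by 2.04 ± 0.29 in GMP fl/p30 (adjusted p = 0.000933), 1.86 ± 0.29 in GMP fl/BRM2 (0.00411) and 1.75 ± 0.29 in preGM fl/p30 (0.00783, and 0.0521 without preGM +/+ replicate 2). Cd3g was higher in GMP fl/p30 by 0.96 ± 0.24 (adjusted p = 0.0276), with levels of 4.07 to 5.30 over all arrays, and was not called once any GMP fl/p30 array, or replicate 2 or 3 of the control, was left out (up to 0.0799). The other 8 markers in GMP fl/p30 and 9 in each of the other mutant comparisons were not called. Cd3e, a chain of the T cell receptor complex, ranged from 5.88 to 6.45 over all arrays and Cd3d from 3.93 to 5.91. The highest Cd3d value was on GMP fl/p30 replicate 1, the array with the highest Gzmb. On replicates 2 and 3 of that group Cd3d was 4.33 and 4.26. On GMP fl/BRM2 replicate 2, where Gzmb was 12.22, Cd3d was 4.15. Cd3g was 5.19 on that array, against 4.11 and 4.07 on replicates 1 and 3 of the group. The mean level of 10 NK cell markers was 5.36 to 5.98 in GMP fl/p30 and 5.27 to 5.29 in GMP fl/BRM2, against 5.34 to 5.41 in GMP fl/+, and 5.36 to 5.53 in preGM fl/p30, against 5.25 to 5.62 in preGM +/+. Of these 10, Klrd1 was called higher in GMP fl/p30 (0.68 ± 0.19, adjusted p = 0.0484, and up to 0.171 in 12 of 15 leave-outs) and 0 in GMP fl/BRM2 or preGM fl/p30, where 0 had an unadjusted p under 0.05 (limma). The part of T cells and NK cells in the Gzmb values was not tested. None of the 6 measured B cell markers was called in any comparison (limma; 0 had an unadjusted p under 0.05 in the 3 mutant comparisons), and their mean spanned 6.07 to 7.82 within preGM +/+. Of 5 eosinophil markers, 2 were higher and 1 lower in GMP fl/p30, where 4.69% and 1.37% of all genes were. In GMP fl/BRM2 and in preGM fl/p30, 1 was higher (1.89% and 0.647% of all genes). All 5 had an unadjusted p under 0.05 (limma) in GMP fl/p30 and in GMP fl/BRM2, and 2 in preGM fl/p30. The lower marker was Prg2 (-3.45, adjusted p up to 0.0939 in 4 leave-outs). Among these calls, only Siglecf in GMP fl/p30 (0.90) was kept in all 15 leave-outs.

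For each called member, the 3 genes most like it were taken by Pearson's r over the 15 arrays, which fall into 5 groups, so r mostly describes the group means. For Gzmb these were Scin, which encodes an actin-severing protein (r = 0.959), the short-chain fatty acid receptor gene Ffar2 (0.957) and the ATP-gated channel gene P2rx1 (0.956). For Gzmc they were Gdpd1 (0.898), Saa2 (0.882) and Trpv4 (0.878). For Mcpt8 they were the hexokinase gene Hk3 (0.882), Dock9 (0.881) and S100a8, a calprotectin subunit of neutrophils (0.859). For Cma1 they were Cyp11a1, the side-chain cleavage enzyme of steroid synthesis (0.938), Csrp3 (0.936) and Rab19 (0.929). Among the members themselves, r was 0.835 between Gzmb and Gzmc, 0.796 between Gzmb and Cma1, 0.78 between Ctsg and Mcpt8 and -0.342 between Gzmb and Ctsg.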

How the data were processed

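RNA of sorted progenitors, 20 ng per sample, was amplified and hybridised to Affymetrix Mouse Gene ST arrays, per the labels' protocols. The authors deposited log2 values of 34760 probe sets on 15 arrays. Per the submitters' processing notes these came from RMA in the affy software (versions not given in the sources used here), a method of background correction, quantile normalization and probe summary. Quantile normalization sets relative levels, so a global shift in RNA would not show. The platform annotation gave 1 symbol to 21640 probe sets, several to 1321, and 11799 are unnamed here; with the brightest probe set per gene, 19937 genes were tested. Cma2 and Mcpt9 share probe sets and are not used here.

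Groups came from the labels. Group means over all 15 arrays were fitted with limma 3.58.1 (R 4.3.3) and eBayes (10 residual and 4.24 prior degrees of freedom), with Benjamini-Hochberg adjustment per comparison and a call at 0.05. The fit was checked on simulated data. The replicates are separate animals within a group. The fl/p30 groups are paired by animal, and the deviations of same-animal arrays correlated at 0.334, 0.32 and 0.116. The members, lists and named genes were chosen with earlier results of these data known. All members are named, with up to 4 called genes of each list by size of difference, or up to 2 by level where none was called. Prf1, Gzma, Gzmk, Gzmm, Srgn, Ctsc, Elane, Tpsab1, Tpsb2, Fcer1a, Ms4a2, Cd200r3, Mrgprb1, Mrgprb2, Kit, Cd3e, Cd3d, Serpinb9, Cebpa, Runx3, Sdr39u1 and Nynrin were named beyond that rule, with their values seen. Alternatives covered probe sets, dim genes, centring, variance trend, array weights, arrays fitted, blocks, a size threshold and leaving out each array.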

Additional observations from a re-analysis of the deposited data

How the results depend on the processing

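Of the differences of the 8 members across alternatives, 1217 kept their direction and side of the threshold or crossed no threshold, 29 lost a call and 22 gained one, and none of the called ones changed sign. The count of members called in GMP fl/p30 against GMP fl/+ was 2 with the compared arrays alone, instead of 4, and in GMP fl/BRM2 it was 2 instead of 3 there, with centring, with the filter on dim genes and with a minimum log2 difference of 1. With array weights it was 1 instead of 0 between the mutants, 3 instead of 1 in preGMs and 5 instead of 2 between the fl/p30 stages. With the compared arrays alone it was 3 in preGMs and 1 between the fl/p30 stages. With a minimum log2 difference of 1 it was 1 instead of 2 between the control stages. Leaving out single arrays gave 3 to 4 in GMP fl/p30, 2 to 3 in GMP fl/BRM2, 0 to 1 between the mutants, 1 to 3 in preGMs, 1 to 3 between the fl/p30 stages, 1 to 2 between the control stages and 0 to 1 for the difference of the p30 effects. The causes were not tested.

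With the replicate block as the animal, the fl/p30 stages had 3 members called with a random block (consensus correlation 0.304) and 2 with a fixed block over 6 arrays, and GMP fl/p30 against GMP fl/+ had 3, where Gzmc was not called (adjusted p = 0.0529). Mcpt4 was called between the fl/p30 stages with the random block (adjusted p = 0.0146). The block changed no other call of a member; among the other cluster genes, Gzmf in GMP fl/p30 against GMP fl/+ was not called with the number as a block (adjusted p = 0.0571). A fixed block of replicate number, which marks no shared animal in the other groups, left every count of members as it was.

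Gzmc, Mcpt1, Mcpt2 and Mcpt4 did not pass the filter on dim genes and have no value under it.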
